A study of Rattus norvegicus with 24 samples.

Results

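The F2 generation of the postnatal oxycodone (PNO) line was compared to the F2 saline (SAL) line in RNA-seq of the nucleus accumbens (NAc) from Sprague Dawley rat pups at postnatal day 14 (P14). Of the 24 libraries in the series, 8 entered this comparison, with 4 from F2 PNO and 4 from F2 SAL, and 8 further libraries from the F1 generation of the same lines served one test of generation. The features described are the 13626 of 23950 genes with at least 1 FPKM (fragments per kilobase of transcript, scaled to library size) in 4 or more of the 8 F2 libraries, of which 11974 matched a protein-coding RefSeq gene. In the PNO line, the F0 dams were given oxycodone by mouth at 15 mg/kg/day from birth of the litter to weaning, so that the F1 pups met the drug while nursing. F1 females then received no drug, were mated with males that had no part in the experiment, and raised the F2 pups. The F2 PNO pups were therefore exposed by descent alone, and the F2 SAL pups were the saline controls of their generation. The pups were males or females taken at random from each treatment group, and neither the sex of each pup nor whether pups of a group shared a litter is given in the sources used here.

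The NAc is the ventral part of the striatum and receives dopamine input as part of the reward pathway. Most of its neurons are GABA-releasing projection neurons that carry dopamine and opioid peptide signals, and a small population of interneurons shapes their firing. In the second postnatal week the tissue is still forming synapses, guiding axons and adding glia. Proteins that enter the secretory pathway, such as receptors and channels, are folded by chaperones in the endoplasmic reticulum. The primary cilium, a single antenna on most neurons and glia, is built by intraflagellar transport.

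Before any comparison, the libraries were checked for other sources of difference. A defining marker of striatal projection neurons, Ppp1r1b (the dopamine signaling protein DARPP-32), was present in all 8 libraries at 287 to 473 FPKM. The library F2 PNO 1 stood apart on the first principal component, which held 42.7% of the variance, with a score of -99 against -3.21 to 29.8 for the other 7. It also had the highest share of mitochondrially encoded transcripts, which made up 41.8% of its summed FPKM against 29.8% to 38.1% in the others. The library F2 PNO 4 held transcripts of tissues next to the NAc or at the base of the brain. Ttr, the transthyretin made by choroid plexus, was at 6696 FPKM there and at 1.87 to 77.3 FPKM in the other 7, and the pituitary hormone genes Gh1, Prl, Cga and Tshb, chosen after their values were seen, were at 4682, 150.4, 633 and 387 FPKM there against at most 1.53 FPKM in the other 7. F2 PNO 4 also held the highest summed FPKM of Y-linked genes, at 30.2 against 0 to 2.57. Results are therefore given with all 8 libraries and, for gene groups and the genes described in most detail, without F2 PNO 1, without F2 PNO 4 or without both where that changed a call.

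**Figure D1:**
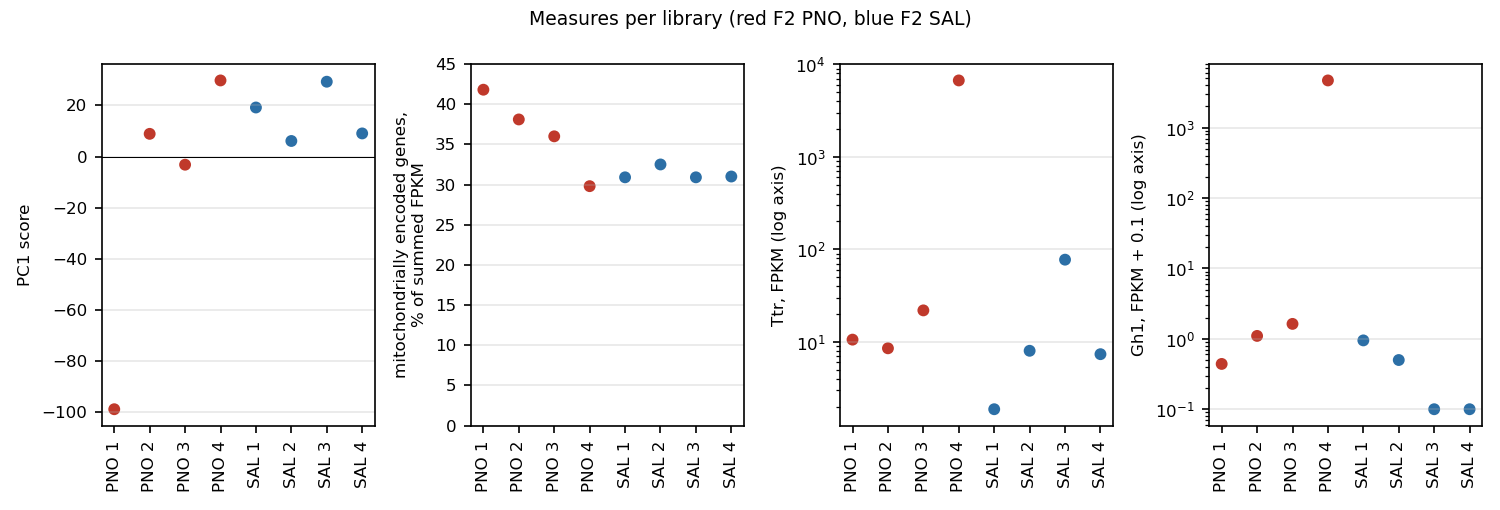
Measures of library composition for the 4 F2 PNO (red) and 4 F2 SAL (blue) libraries: score on the first principal component, mitochondrially encoded genes in % of summed FPKM, FPKM of Ttr, and FPKM + 0.1 of the growth hormone gene Gh1, the last 2 on log axes. F2 PNO 1 lies at -99 on the first component, and F2 PNO 4 lies far above the other 7 for Ttr (6696 FPKM) and Gh1 (4682 FPKM).

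Differences were tested with limma on log2(FPKM + 0.1), and every log2 difference below is F2 PNO minus F2 SAL on that scale, given ± its standard error, with 4 libraries per group. No gene passed an adjusted p of 0.05 (0 of 13626, 0%), and the smallest adjusted p was 0.0528. The counts below therefore rest on unadjusted p-values, and a gene is called higher or lower where that p was under 0.05 in limma; the adjusted p printed beside a gene is over all genes tested. On this measure 591 genes (4.34%) were higher and 1065 genes (7.82%) were lower in F2 PNO, 1656 in all, and the remaining 11970 were not called. A 2-fold rule asked in addition for mean FPKM that differed 2-fold or more, and took in 52 higher genes (0.382%) and 99 lower genes (0.727%), 151 in all. With a ratio of 1.5-fold in its place, 539 genes passed. The 2 groups did not overlap for 1099 genes (8.07%), 403 of them higher and 696 lower. Among protein-coding genes, 517 were higher and 909 were lower, and the median size of the called differences was 0.46 on the log2 scale.

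The excess of lower genes depended on F2 PNO 1 and on scaling. Lower genes made up 64.3% of the 1656 called, 53.5% without F2 PNO 1 (6.11% of all genes higher and 7.02% lower), and 46.0% after the libraries were rescaled to a common upper quartile. Under the 2-fold rule, 65.6% of the 151 genes were lower, and 52.3% were lower after that rescaling. The median log2 difference of all 13626 genes was -0.09 with all libraries, 0.01 without F2 PNO 1 and -0.15 without F2 PNO 4. Of the 1656 called genes, 1212 were called in the same direction without F2 PNO 1, and of the 151 genes of the 2-fold rule, 90 remained in it.

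**Figure D2:**
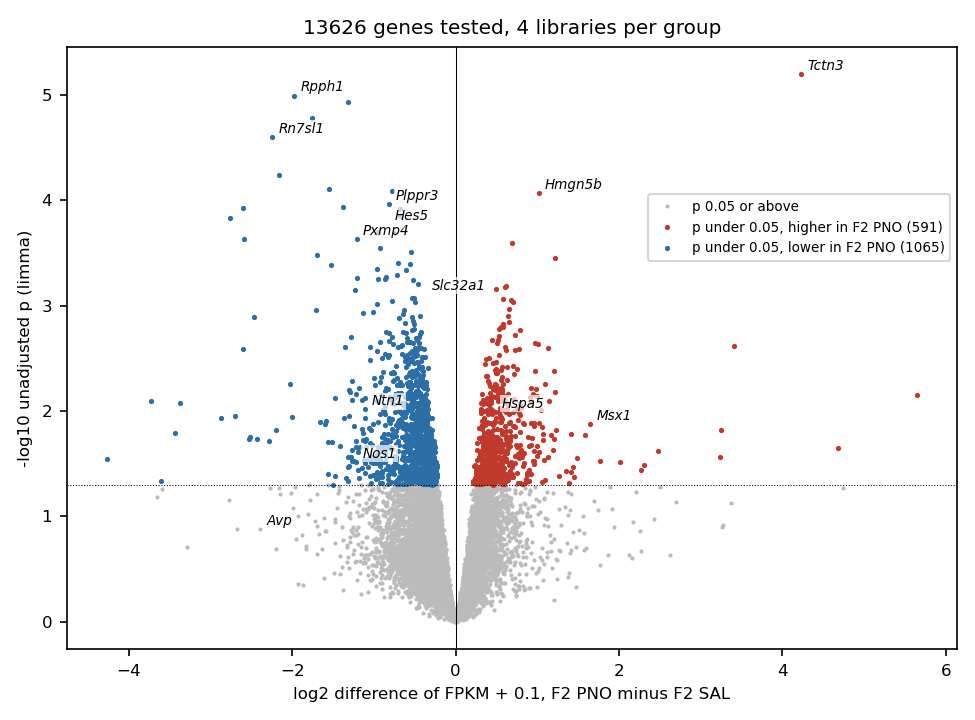
Unadjusted p of each of 13626 genes (-log10, limma) against its log2 difference in FPKM + 0.1, F2 PNO minus F2 SAL, 4 libraries per group; red and blue points are the 591 higher and 1065 lower genes with p under 0.05 (dotted line) and named genes are labelled. More points lie on the left (lower in F2 PNO) than on the right, and Tctn3 stands alone on the far right near the top.

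Among protein-coding genes that met the 2-fold rule with no overlap between groups (10 higher and 16 lower), the gene with the smallest p was Tctn3, a tectonic protein of the ciliary transition zone, the gate at the base of the cilium. It was at 1.22, 1.85, 1.77 and 2.44 FPKM in F2 PNO 1 to 4 and was listed at 0 in all 4 F2 SAL libraries. All 4 F2 PNO values were low but above 0 (adjusted p = 0.0528, limma), and no fold was computed against a group listed at 0. Tctn3 was tested only because all 4 F2 PNO values passed 1 FPKM, so its p is not free of the filter. Elsewhere in the series it was above 0 in 2 of 4 F1 SAL libraries and 1 of 4 F1 PNO libraries, so an FPKM of 0 also occurred outside F2 SAL. FPKM values alone cannot tell an absent transcript from one that was not estimated in a library, so the difference is uncertain. Hmgn5b, a nucleosome-binding chromatin protein, was at 7.81, 8.73, 7.33 and 7.87 FPKM in F2 PNO and at 3.72, 4.31, 4.25 and 3.25 FPKM in F2 SAL. Its groups were tight and well separated, with a 2.04-fold ratio of means and a log2 difference of 1.02 ± 0.15 (adjusted p = 0.126, limma), while the related gene Hmgn5 differed by 0.15 ± 0.60, and reads may be shared between these copies. Mterf1, a regulator of mitochondrial transcription termination, was at 3.57, 4.15, 5.32 and 2.63 FPKM in F2 PNO against 2.02, 1.80, 1.90 and 1.66 FPKM in F2 SAL. The lowest F2 PNO value lay above the highest F2 SAL value, and the log2 difference was 1.01 ± 0.24 (adjusted p = 0.311, limma).

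The other 7 higher genes of this kind had log2 differences of 0.92 to 1.65. Ccdc113 and Efcab1, which encode ciliary proteins, differed by 1.0 ± 0.29 and 1.22 ± 0.35, and Kif15, a mitotic kinesin, differed by 0.92 ± 0.33. Ccdc113 and Efcab1 were highest in F2 PNO 4, at 7.42 and 6.46 FPKM. Without that library they differed by 0.75 and 0.96 and still passed. Cklf, a chemokine-like factor, differed by 1.09 ± 0.30, Stard6, a lipid transfer protein, by 1.06 ± 0.35, and Ifi44, an interferon-induced gene, by 1.0 ± 0.38. Msx1, a homeobox transcription factor, was at 3.02, 2.74, 1.80 and 11.4 FPKM in F2 PNO and at 0.65, 1.69, 1.21 and 1.04 FPKM in F2 SAL. Its highest value was in F2 PNO 4, the library with choroid plexus transcripts, and its log2 difference was 1.65 with that library and 1.11 without it, where it still passed. Without F2 PNO 4, Kif15 and Ifi44 no longer passed the unadjusted threshold.

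Of the 12 lower genes named, Pxmp4, a peroxisomal membrane protein, had the smallest p. It was at 5.03, 8.37, 8.19 and 7.72 FPKM in F2 PNO and at 13.3, 16.6, 16.7 and 21.6 FPKM in F2 SAL. All F2 PNO values were below all F2 SAL values, with F2 SAL 2.33-fold higher by the means and a log2 difference of -1.21 ± 0.21 (adjusted p = 0.169, limma). Shisa8, of a family of auxiliary proteins of AMPA receptors, was at 2.55, 2.34, 3.75 and 4.00 FPKM in F2 PNO and at 6.11, 6.42, 5.46 and 7.40 FPKM in F2 SAL. The groups did not overlap, and the log2 difference was -1.01 ± 0.22 (adjusted p = 0.301, limma). Tstd1, a thiosulfate sulfurtransferase, differed by -1.05 ± 0.25, and Slc13a3, a sodium-coupled dicarboxylate transporter, by -1.26 ± 0.35. Siglec5, a sialic acid-binding receptor of immune cells, differed by -1.30 ± 0.37, Scarf1, a scavenger receptor, by -1.60 ± 0.52, and Ppp1r3e, a glycogen-targeting phosphatase subunit, by -1.59 ± 0.51. The difference of Ppp1r3e was -1.10 without F2 PNO 1, the library with its lowest value (0.13 FPKM), and that of Scarf1 was -1.17 without F2 PNO 1. Tmem258b, Dmrtb1, Rec114 and Natd1 made up the rest, with log2 differences of -0.96 to -1.14, and Tmem258b is one of several near-identical copies of Tmem258.

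Rps19, a protein of the small ribosomal subunit, also belonged to these 12, but its values split between gene models. The first model was at 55.8, 157.3, 92.8 and 118.2 FPKM in F2 PNO and at 225.8, 277.5, 182.0 and 293.7 FPKM in F2 SAL, and the log2 difference was -1.28 ± 0.30 (adjusted p = 0.311, limma). The second model of the same symbol differed by 0.25 ± 0.30 (adjusted p = 0.727, limma), with the higher mean in F2 PNO. Summed over both, the means were 357 FPKM in F2 PNO and 458 FPKM in F2 SAL with overlapping values, so how reads were divided between the models makes the first difference uncertain.

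**Figure D3:**
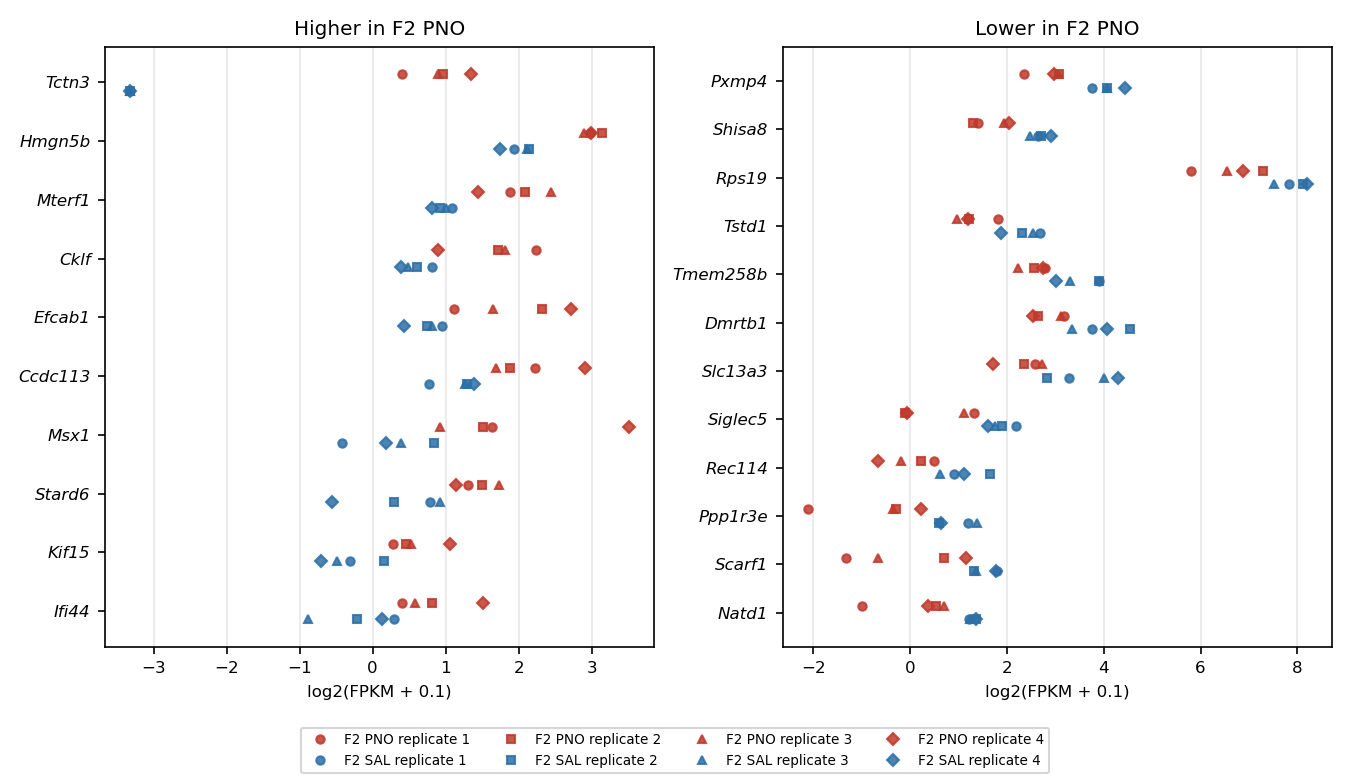
FPKM of the named protein-coding genes in each library, as log2(FPKM + 0.1), with 10 genes higher (left) and 12 genes lower (right) in F2 PNO (red) than in F2 SAL (blue); marker shapes give the replicate number. By the choice of genes the colours do not overlap in any gene, Tctn3 is at 0 FPKM in all 4 F2 SAL libraries, and F2 PNO 4 lies far to the right for Msx1.

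Protein folding genes were more often higher than lower in F2 PNO. Of 106 tested genes annotated to protein folding, 16 (15.1%) were higher and 2 were lower (background 4.34% and 7.82%), with a median log2 difference of 0.05 beside -0.09 over all genes. The differences were modest in size, from 0.28 to 0.52 for the 16 higher genes. Without F2 PNO 1, 17 (16%, background 6.11%) were higher and 4 (3.77%, background 7.02%) were lower. Without both libraries that stood apart, 19 (17.9%, background 6.94%) were higher and 6 (5.66%, background 9.89%) were lower. After upper-quartile rescaling, 22 (20.8%, background 6.99%) were higher and 0 (background 5.96%) were lower. The share of higher genes over all genes thus also rose in these settings. Of 17 heat shock and chaperone genes, 3 (17.6%, background 4.34%) were higher and none was lower (limma, unadjusted p under 0.05).

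Hspa5, the main chaperone of the endoplasmic reticulum (BiP), was at 139.96, 121.8, 119.0 and 162.2 FPKM in F2 PNO and at 105.1, 77.2, 94.05 and 112.1 FPKM in F2 SAL. Every F2 PNO value was above every F2 SAL value, by a log2 difference of 0.49 ± 0.15 (adjusted p = 0.327, limma), and the difference was 0.32 and no longer called without F2 PNO 1 and 4. Hsp90b1, the HSP90 of the same compartment (GRP94), was at 73.85, 79.4, 61.2 and 93.7 FPKM in F2 PNO and at 57.7, 46.8, 58.0 and 63.9 FPKM in F2 SAL. F2 PNO 3 lay below F2 SAL 4, so the groups overlapped, and the log2 difference was 0.44 ± 0.15 (adjusted p = 0.354, limma), or 0.31 and no longer called without F2 PNO 1 and 4. Erp44, which retains proteins with exposed thiols in the early secretory pathway, was at 16.8, 17.8, 22.9 and 18.5 FPKM in F2 PNO and at 13.95, 13.7, 14.95 and 13.5 FPKM in F2 SAL. Its groups did not overlap, with a log2 difference of 0.43 ± 0.13 (adjusted p = 0.326, limma).

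Further folding genes of this compartment were Dnajc1, a membrane-bound cochaperone, at 0.52 ± 0.15, and Pdia6, a protein disulfide isomerase, at 0.36 ± 0.13. Calr, the lectin chaperone calreticulin, was higher by 0.30 ± 0.13 (adjusted p = 0.407, limma) with overlapping groups, and was not called without F2 PNO 1. Folding genes outside this compartment included Cct2, a subunit of the cytosolic chaperonin, at 0.31 ± 0.09, and Hspd1, the mitochondrial HSP60, at 0.28 ± 0.10. The lower genes were Trap1 and Txn2, both mitochondrial, a chaperone and a thioredoxin. Xbp1, a transcription factor of the unfolded protein response, differed by 0.01 ± 0.16 (adjusted p = 0.981, limma).

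The promoters of these genes are shown because the best known control of endoplasmic reticulum chaperones runs through one element, CCAAT and CCACG with 9 bases between them, read on either strand. It was searched for in the 250 bases upstream of each RefSeq gene start (GRCr8), after the expression differences were known. The stretches that hold it in 3 folding genes are printed 5′ to 3′ on the strand of the gene, with both parts of each element in capitals (CGTGG and ATTGG where it lies on the opposite strand).
Hspa5, chr3:38452943-38453015, plus strand: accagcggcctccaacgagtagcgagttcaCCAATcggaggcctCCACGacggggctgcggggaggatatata
Hsp90b1, chr7:23012317-23012499, minus strand: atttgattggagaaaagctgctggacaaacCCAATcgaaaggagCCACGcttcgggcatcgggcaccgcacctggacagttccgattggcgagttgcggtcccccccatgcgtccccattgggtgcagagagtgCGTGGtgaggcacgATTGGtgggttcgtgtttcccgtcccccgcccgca
Calr, chr19:40213117-40213183, plus strand: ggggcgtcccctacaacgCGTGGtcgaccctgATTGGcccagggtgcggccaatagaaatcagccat

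The element was present in 22 of 33469 RefSeq promoters (0.0657%) and in 16 of the 9869 tested protein-coding genes with a promoter in the table (0.162%). Of these 16 genes, 4 were among the higher genes, namely Hspa5, Hsp90b1, Calr and Dnajc3, an inhibitor of the stress kinase PERK. They were 4 of 445 higher genes with a promoter (0.899%), and the element was in 0 of the 737 lower genes. Of the 12 others, 7 had a difference below 0, among them the degradation factor Derl3 (-0.06), the oxidase Ero1b (-0.03) and the survivin gene Birc5 (-0.53). The others also held the chaperone Canx, at 0.25 ± 0.13 (adjusted p = 0.452, limma), the endoplasmic reticulum protein Creld2, at 0.41 ± 0.22 (adjusted p = 0.469, limma), and Xbp1. The element is known from endoplasmic reticulum chaperones and was searched for after these were seen to be higher, so its presence in them is no separate evidence. With the element in 0.162% of the tested genes, 0 of 737 lower genes tells little. These matches describe letters in the promoters, and binding was not measured.

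Genes of cilium assembly were also more often higher with all libraries. Of 63 tested genes with this annotation, 8 (12.7%) were higher and 2 were lower (background 4.34% and 7.82%), and the median log2 difference was 0.06. Without F2 PNO 1, 9 (14.3%, background 6.11%) were higher and 2 (3.17%, background 7.02%) were lower. The counts were 5 and 2 without F2 PNO 1 and 4, where the higher share (7.94%) was near that of all genes (6.94%). Ift74, a core subunit of the intraflagellar transport train, was at 13.6, 12.8, 10.7 and 11.1 FPKM in F2 PNO and at 7.14, 8.93, 7.69 and 6.63 FPKM in F2 SAL. The groups were well apart, with a log2 difference of 0.66 ± 0.15 (adjusted p = 0.311, limma). Its partners Ift57, Ift52 and Ift80 were higher by 0.36 ± 0.11, 0.31 ± 0.12 and 0.45 ± 0.18, and the septin Sept7, which forms filaments at the ciliary base, by 0.73 ± 0.17. Of 17 genes of the transition zone, 2 (11.8%, background 4.34%) were higher, Tctn3 and Tmem216 (0.41 ± 0.17), and none was lower. Of these, Tctn3 had passed the filter through F2 PNO alone. Ift57, Ift52, Ift80 and Tmem216 were not called without F2 PNO 1 and 4. Of 12 tested markers of ependyma and motile ciliated cells, none was called, 11 had a difference above 0, and their median was 0.62 with all libraries and 0.09 without F2 PNO 1 and 4.

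Genes of synaptic transmission were lower in a share above the background with all libraries, and near it without F2 PNO 1 and 4. The size of their median difference rested on F2 PNO 1. Of 119 tested genes annotated to chemical synaptic transmission, 14 (11.8%, background 7.82%) were lower and 1 was higher, with a median log2 difference of -0.22. Without F2 PNO 1, 12 (10.1%, background 7.02%) were lower and 4 were higher and the median was -0.01. The lower share was 14.3% (background 12.4%) without F2 PNO 4 and 10.9% (background 9.89%) without F2 PNO 1 and 4. In a bulk tissue library, fewer cells of a type and less RNA per cell cannot be told apart for these and all later groups.

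GABA is the transmitter of most NAc neurons. Slc32a1, the vesicular GABA transporter, was at 102.7, 89.8, 99.8 and 87.6 FPKM in F2 PNO and at 146.5, 136.8, 121.1 and 132.1 FPKM in F2 SAL. All F2 PNO values lay below all F2 SAL values, with a log2 difference of -0.50 ± 0.10 (adjusted p = 0.27, limma) and -0.54 without F2 PNO 1. Of 21 tested genes of GABA synthesis, transport and receptors, 4 (19%, background 7.82%) were lower and none was higher. Without F2 PNO 1, Slc32a1 was the single one that still passed (4.76%, background 7.02%). The lower genes also included the receptor subunit Gabbr1, at -0.23 ± 0.10, and the GABA-degrading enzyme Abat, at -0.46 ± 0.20.

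Among serotonin and acetylcholine receptors, 4 of 17 (23.5%, background 7.82%) were lower and 1 (5.88%, background 4.34%) was higher. These counts were the same without F2 PNO 1. Htr6, a serotonin receptor abundant in striatum, was at 4.27, 3.27, 3.88 and 5.64 FPKM in F2 PNO and at 7.16, 6.85, 8.45 and 7.43 FPKM in F2 SAL. Every F2 PNO value was lower, with a log2 difference of -0.82 ± 0.19 (adjusted p = 0.311, limma). Htr2c, another serotonin receptor, went the other way, at 30.9, 33.7, 32.1 and 24.7 FPKM in F2 PNO and 21.6, 23.7, 23.1 and 19.3 FPKM in F2 SAL. Its groups did not overlap, and the log2 difference was 0.46 ± 0.13 (adjusted p = 0.326, limma). Chrm4, the inhibitory muscarinic receptor of projection neurons, differed by -0.41 ± 0.11, and the serotonin-gated channel Htr3a differed by -0.87 ± 0.25.

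Of 25 glutamate receptor genes, 2 (8%) were lower, a share near the background of 7.82%, and none was higher. Grik5, a kainate receptor subunit, was at 37.9, 50.55, 47.3 and 64.9 FPKM in F2 PNO and at 80.5, 73.9, 82.7 and 73.3 FPKM in F2 SAL. The groups did not overlap, with the lowest value in F2 PNO 1, and the log2 difference was -0.65 ± 0.16 (adjusted p = 0.311, limma). Grin1, the obligate NMDA receptor subunit, differed by -0.39 ± 0.11. Of 26 postsynaptic scaffold and kinase genes, 3 (11.5%, background 7.82%) were lower, among them Dlgap3 (-0.48 ± 0.13). Of 31 presynaptic genes, 2 (6.45%, below the background) were lower, Syn1, a vesicle phosphoprotein (-0.40 ± 0.11), and Nrxn2, a presynaptic adhesion protein (-0.82 ± 0.26).

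Of 38 voltage-gated channel genes, 6 (15.8%, background 7.82%) were lower and none was higher. Their median was -0.435 with all libraries and -0.05 without F2 PNO 1, while 5 of the 38 (13.2%, background 7.02%) were still lower. Cacna2d2, an auxiliary calcium channel subunit, was at 19.7, 26.5, 29.7 and 28.8 FPKM in F2 PNO and at 53.1, 29.9, 53.0 and 44.8 FPKM in F2 SAL. F2 SAL 2 was just above the F2 PNO values, and the log2 difference was -0.77 ± 0.21 (adjusted p = 0.326, limma). The potassium channel Kcnj4 differed by -0.59 ± 0.17 and the T-type calcium channel Cacna1h by -0.76 ± 0.23.

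**Figure D4:**
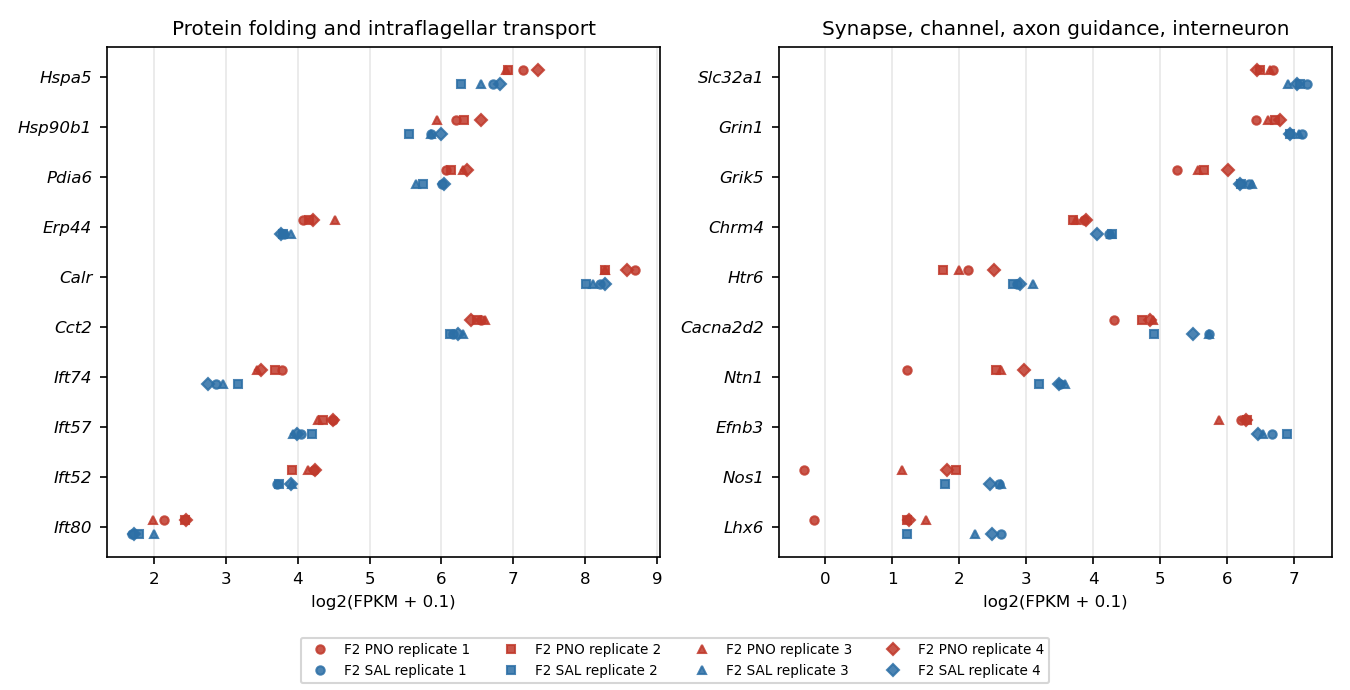
FPKM of 20 called genes in each library, as log2(FPKM + 0.1), for protein folding and intraflagellar transport (left) and for synapse, channel, axon guidance and interneuron genes (right); red is F2 PNO, blue is F2 SAL, and shapes give the replicate number. By the choice of called genes, the red points lie mostly to the right of the blue on the left and mostly to the left of them on the right. The colours overlap for some genes, such as Hsp90b1, Calr, Lhx6 and Nos1, and F2 PNO 1 (red circle) is lowest for Ntn1, Nos1 and Lhx6.

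Axon guidance genes were lower more often than higher with all libraries, and were closer to the background without F2 PNO 1. Of 116 tested genes, 17 (14.7%, background 7.82%) were lower and 2 were higher, with a median log2 difference of -0.27. Without F2 PNO 1, 11 (9.48%, background 7.02%) were lower and 7 (6.03%, background 6.11%) were higher and the median was -0.05. Ntn1, the guidance cue netrin-1, was at 2.24, 5.73, 6.05 and 7.70 FPKM in F2 PNO and at 11.2, 9.03, 11.9 and 11.1 FPKM in F2 SAL. The groups did not overlap, and the log2 difference of -1.10 ± 0.34 (adjusted p = 0.327, limma) was -0.73 without F2 PNO 1, its lowest value, and was still called. Efnb3, an ephrin ligand, was at 74.0, 79.2, 59.15 and 78.3 FPKM in F2 PNO and at 102.5, 119.4, 93.2 and 88.4 FPKM in F2 SAL. Its values were lower in every F2 PNO library, by a log2 difference of -0.47 ± 0.14 (adjusted p = 0.326, limma). Nectin1, an adhesion protein, differed by -0.58 ± 0.18 and the semaphorin receptor Nrp2 by -0.81 ± 0.26.

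The transcription factors Dlx5 and Hes5 were both lower, and no list of such factors was counted. Dlx5, a homeobox factor of GABA neuron development that is also annotated to axon guidance, was at 17.3, 17.0, 14.2 and 15.4 FPKM in F2 PNO and at 23.96, 23.6, 21.05 and 22.02 FPKM in F2 SAL. Both groups were tight and apart, with a log2 difference of -0.50 ± 0.11 (adjusted p = 0.311, limma). Hes5, an effector of Notch signaling, was at 7.51, 10.8, 10.9 and 9.36 FPKM in F2 PNO and at 20.8, 16.3, 17.0 and 20.5 FPKM in F2 SAL. Every F2 PNO value was lower, by a log2 difference of -0.95 ± 0.16 (adjusted p = 0.163, limma), and it was -0.77 without F2 PNO 1 and 4.

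Cell type markers were tested for the populations of the NAc and its neighbours. Among 28 markers of striatal projection neurons, 4 (14.3%, background 7.82%) were lower and none was higher, with a median of -0.15. They included Rasgrp2, a guanine nucleotide exchange factor (-0.49 ± 0.12), and Chrm4, while the dopamine receptors Drd1 and Drd2 were not called (-0.33 ± 0.21 and -0.01 ± 0.21). Without F2 PNO 1, 5 (17.9%, background 7.02%) were lower. Of 11 interneuron markers, 4 (36.4%, background 7.82%) were lower and none was higher, and the median of -0.53 was the lowest of the neuronal marker lists. Lhx6, a factor of the parvalbumin and somatostatin lineages, was at 0.79, 2.23, 2.75 and 2.28 FPKM in F2 PNO and at 6.06, 2.23, 4.61 and 5.53 FPKM in F2 SAL. F2 SAL 2 was level with the F2 PNO libraries, so the groups overlapped, and the log2 difference was -1.19 ± 0.43 (adjusted p = 0.359, limma), -0.82 without F2 PNO 1. The others were Nos1, the neuronal nitric oxide synthase (-1.22 ± 0.48), Slc18a3, the vesicular acetylcholine transporter (-0.92 ± 0.38), and Calb2, calretinin (-0.53 ± 0.23). Calb2 is also a marker of thalamus and habenula, and was the single called gene of that list (8.33%, background 7.82%). It was highest in F2 PNO 3, F2 SAL 3 and F2 SAL 4, at 102.5, 145.4 and 145.9 FPKM. These libraries also had the highest summed thalamic markers, at 356, 375 and 319 FPKM. The part of thalamic tissue in the Calb2 difference was not tested. Without F2 PNO 1 and 4, 1 of the 11 (9.09%, background 9.89%) was lower, and Lhx6, Slc18a3 and Calb2 were not called.

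Of 15 markers of neuroblasts and proliferating cells, 4 (26.7%, background 4.34%) were higher and 2 (13.3%, background 7.82%) were lower. The higher genes act in the cell cycle, namely Nusap1 (0.93 ± 0.30), Ube2c (0.74 ± 0.27), Top2a (0.57 ± 0.22) and Cdk1 (0.45 ± 0.20), and the lower genes, Dlx5 and the neuronal tubulin Tubb3, are genes of young neurons. Birc5, a further mitotic gene of this list, differed by -0.53 and was not called. Without F2 PNO 1 and 4, 1 (6.67%, background 6.94%) was higher and 2 were lower. Of 63 tested genes annotated to the cell cycle, 3 (4.76%) were higher and 5 (7.94%) were lower, both near the background. Of 23 oligodendrocyte markers, 17 had a difference above 0 and the median was 0.21, while 2 (8.7%, near the background) were lower, Olig1 (-0.50 ± 0.17) and Cspg4 (-0.44 ± 0.16). Without F2 PNO 4, 6 of the 23 (26.1%, background 5.93%) were higher, 1 (4.35%, background 12.4%) was lower and the median was 0.51. Without F2 PNO 1 none was higher, 3 (13%, background 7.02%) were lower and the median was -0.05. Among other glia, 2 of 15 microglial markers (13.3%, background 7.82%) were lower (Cx3cr1, -0.57 ± 0.20, and Tmem119, -0.70 ± 0.28). Of 15 astrocyte markers, 1 was higher (Gja1, 0.26 ± 0.09) and 1 was lower (Glul, -0.46 ± 0.15), 6.67% each. Tmem119 was not called without F2 PNO 1 or without F2 PNO 4, and Gja1 was not called without F2 PNO 1.

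Markers of meninges and fibroblasts had the lowest median of the marker lists, at -0.59, with 10 of 13 below 0. Of these 13, 2 (15.4%, background 7.82%) were lower, the transporter genes Slc6a13 (-1.51 ± 0.53) and Slc22a6 (-1.32 ± 0.53). Without F2 PNO 1 and 4, 4 (30.8%, background 9.89%) were lower. Slc6a13 is also 1 of the 14 lower genes of synaptic transmission. Of 13 markers of endothelium and pericytes, 2 (15.4%, background 7.82%) were lower, Tagln (-0.51 ± 0.16) and Vtn (-0.51 ± 0.19), and none was higher. Of 14 cortical neuron markers 1 was lower, Cux2 (-0.94 ± 0.37), and their summed level was 85.1 FPKM in F2 PNO 1 against 207 to 409 FPKM in the other 7. None of the tested hypothalamic (8) or choroid plexus (5) markers was called. With the mean level of choroid plexus genes as a covariate, 776 genes were higher and 1600 were lower over the whole table, and the part of neighbouring tissues in each neuronal difference was not tested.

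**Figure D5:**
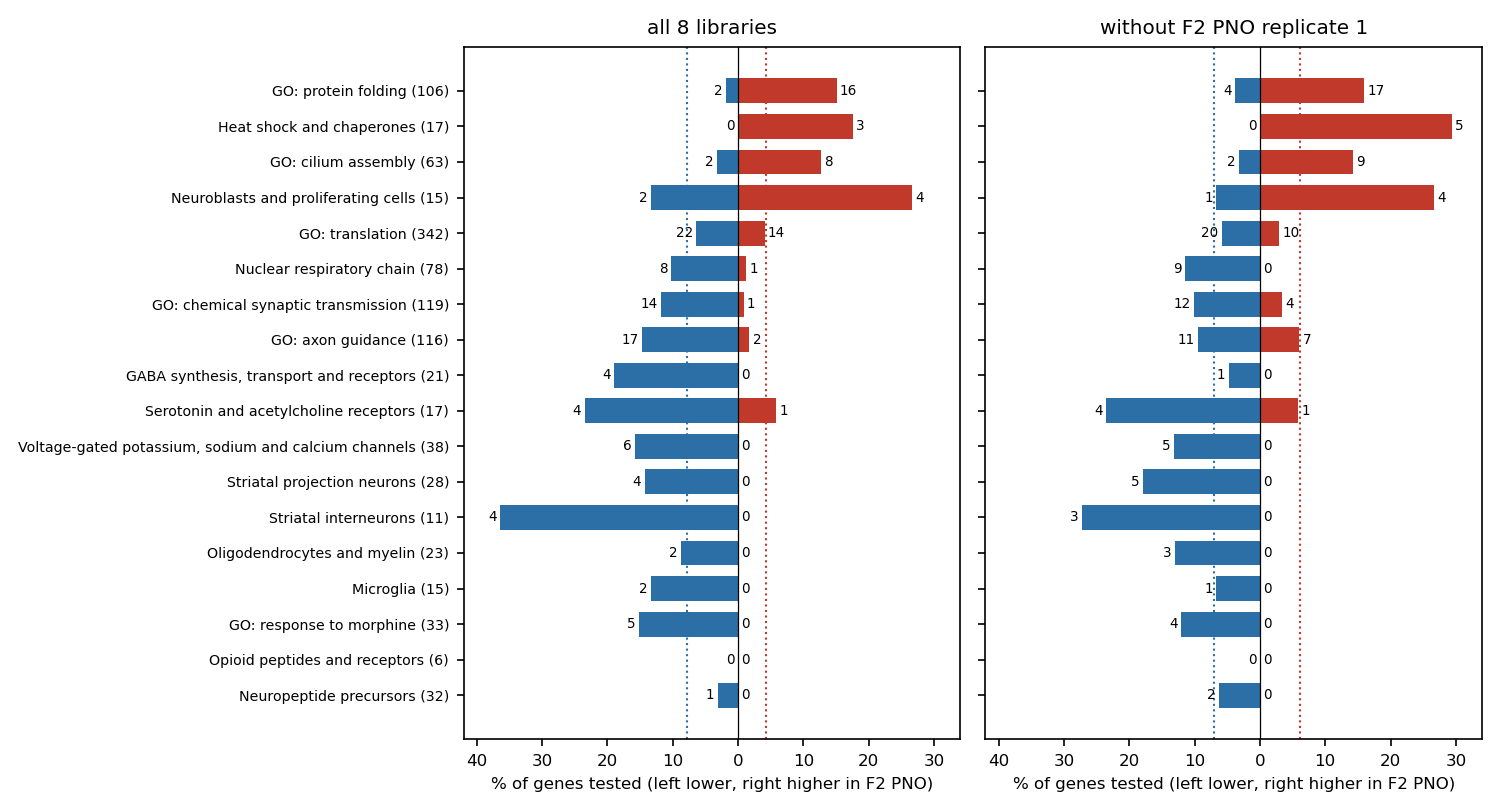
Share of each gene list that was lower (blue, to the left) or higher (red, to the right) in F2 PNO with unadjusted p under 0.05, with all 8 libraries and without F2 PNO 1; bar labels are gene counts, numbers in parentheses are genes tested, and dotted lines are the shares over all 13626 genes (4.34% higher and 7.82% lower with all libraries). Protein folding, chaperone and cilium lists extend to the right in both panels, and the bar of the GABA list shortens from 4 to 1 lower gene.

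Opioid genes were examined because the F0 dams had received an opioid. None of the 6 tested opioid peptide and receptor genes was called. Among them, Pomc was at 818 FPKM in F2 PNO 4, the library with pituitary hormone transcripts, and at 1.51 to 2.42 FPKM in the rest. Penk, the enkephalin precursor, was at 289.5, 253.0, 201.8 and 194.3 FPKM in F2 PNO and at 230.7, 250.1, 173.2 and 156.6 FPKM in F2 SAL. The groups overlapped widely, with a log2 difference of 0.22 ± 0.19 (adjusted p = 0.635, limma). Oprk1, the kappa receptor, differed by -0.50 ± 0.44, and the delta receptor Oprd1 and the mu receptor Oprm1 did not reach the filter, with Oprm1 at 0.02 to 0.23 FPKM in all 8 libraries. Of 33 tested genes annotated to the response to morphine, 5 (15.2%, background 7.82%) were lower and none was higher, with a median of -0.23. Without F2 PNO 1, 4 (12.1%, background 7.02%) were lower. Without F2 PNO 1 and 4, 3 (9.09%) were lower, a share near that of all genes (9.89%). The 5 lower genes included Grin1, the adrenergic receptor Adra1b (-0.80 ± 0.29, not called without F2 PNO 4), the substance P receptor Tacr1 (-1.27 ± 0.47) and the phosphatase gene Ppp5c.

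Dopamine genes were mostly not called. Maob, a monoamine-degrading enzyme, was at 15.5, 16.4, 15.0 and 15.85 FPKM in F2 PNO and at 12.3, 11.3, 11.35 and 11.05 FPKM in F2 SAL. Each group was narrow and the groups did not overlap, with a log2 difference of 0.44 ± 0.10 (adjusted p = 0.311, limma). Ddc, the decarboxylase that makes dopamine and serotonin, was at 0.86, 1.09, 1.16 and 1.06 FPKM in F2 PNO and at 2.32, 2.41, 1.64 and 1.92 FPKM in F2 SAL. All F2 PNO values were lower, with a log2 difference of -0.92 ± 0.25 (adjusted p = 0.326, limma), while Th, the rate-limiting enzyme of dopamine synthesis, differed by -0.02 ± 0.24 (adjusted p = 0.979, limma).

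Among the genes that the study followed by RT-PCR, 10 were looked up here, many of them hypothalamic peptides and their receptors. In these files Pmch, Agrp, Aqp1 and Hcrtr2 were below the filter and were not tested, with Pmch at 0.59, 2.50, 16.1 and 1.22 FPKM in F2 PNO and at 0.37, 0, 0.88 and 0.67 FPKM in F2 SAL. The high Pmch value came from F2 PNO 3 alone. Avp, the vasopressin precursor, was at 47.6, 1.92, 1.48 and 5.50 FPKM in F2 PNO and at 9.44, 3.43, 95.7 and 199.2 FPKM in F2 SAL. Both groups spanned more than a 10-fold range and overlapped, and the log2 difference was -2.39 ± 1.44 (adjusted p = 0.51, limma), or -3.44 and past the unadjusted threshold without F2 PNO 1. Hcrtr1, the first hypocretin receptor, was at 1.79, 1.59, 0.96 and 1.59 FPKM in F2 PNO and at 1.82, 2.2, 3.4 and 2.68 FPKM in F2 SAL. The groups touched without overlapping, with a log2 difference of -0.73 ± 0.29 (adjusted p = 0.382, limma).

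The peptide gene Hcrt itself was not called (0.55 ± 0.45, adjusted p = 0.614, limma), nor were Nptx2, a synaptic pentraxin (-0.32 ± 0.39), and Pdyn, the dynorphin precursor (0.11 ± 0.26). Without F2 PNO 1 and 4 the Hcrt difference was 1.09 and passed the unadjusted threshold. Hba-a2, an alpha globin, has 2 gene models, and the first was at 19.8, 128.9, 24.6 and 31.6 FPKM in F2 PNO and at 21.0, 10.7, 9.65 and 11.2 FPKM in F2 SAL. F2 PNO 2 was far above all others and F2 SAL 1 lay above F2 PNO 1, so the groups overlapped, with log2 differences of 1.58 ± 0.54 and 1.42 ± 0.58 for the models, or 0.99 and 0.84 without F2 PNO 2. The models are close copies between which reads may be split, and the summed level of blood genes was 33.25 to 204.8 FPKM in F2 PNO and 14.3 to 40.6 FPKM in F2 SAL. Of 32 neuropeptide precursor genes 1 (3.12%, below the background of 7.82%) was lower and none was higher (background 4.34%). The lower gene was Vgf, a neurotrophin-inducible precursor, at 100.6, 91.9, 96.2 and 79.8 FPKM in F2 PNO and 118.0, 108.5, 126.55 and 112.2 FPKM in F2 SAL. Its F2 PNO values were all lower, by a log2 difference of -0.34 ± 0.11 (adjusted p = 0.332, limma). After upper-quartile rescaling the Vgf difference was -0.27 and no longer called.

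Nuclear genes of the respiratory chain and genes of translation had medians near 0. Of 78 nuclear genes of the respiratory chain, 8 (10.3%, background 7.82%) were lower and 1 (1.28%, background 4.34%) was higher. The median of the 78 was 0.04, on the other side of 0 from most called genes. Atp5f1d, a subunit of the ATP synthase, differed by -0.48 ± 0.11 and Ndufc1, a subunit of complex I, by -0.56 ± 0.15. After upper-quartile rescaling 2 of the 78 (2.56%, background 5.96%) were lower. Of 13 mitochondrially encoded genes 1 was higher, Mt-nd4 (0.45 ± 0.20), while all 13 had a difference above 0 and their median was 0.35. The mitochondrial share of summed FPKM was 41.8%, 38.1% and 36% in F2 PNO 1 to 3 and 29.8% in F2 PNO 4, against 30.9% to 32.5% in F2 SAL. The median of the 13 genes was 0.22 without F2 PNO 1, where none was called. It was 0.55 with 5 higher (38.5%, background 5.93%) without F2 PNO 4, and 0.35 with 4 higher (30.8%, background 6.94%) without both. Of 342 genes annotated to translation, 14 (4.09%) were higher and 22 (6.43%) were lower (background 4.34% and 7.82%), with a median of 0.01.

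Smaller lists gave single genes, to be read beside 4.34% of all genes higher and 7.82% lower. Hapln1, a link protein of perineuronal nets, was at 12.6, 14.6, 9.57 and 8.38 FPKM in F2 PNO and at 6.63, 7, 5.89 and 6.07 FPKM in F2 SAL. It was the single called gene of 14 brain matrix genes, with no overlap between groups and a log2 difference of 0.78 ± 0.19 (adjusted p = 0.311, limma). Hdac2, a histone deacetylase, was the single called gene of 23 genes of DNA methylation and histone deacetylation (0.33 ± 0.11). Of 25 immediate early genes, Dusp1, a MAP kinase phosphatase, was higher (0.73 ± 0.25) and Jund, an AP-1 factor, was lower (-0.41 ± 0.17). Of 23 imprinted genes, the cell cycle inhibitor Cdkn1c (0.66 ± 0.24) and the splicing factor gene Snrpn (0.41 ± 0.16) were higher and Magel2 was lower (-0.80 ± 0.29).

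The F1 pups of the PNO line had met oxycodone through nursing, and the difference between F2 PNO and F2 SAL was tested against that between F1 PNO and F1 SAL with an interaction term over 16 libraries. No gene passed an adjusted p of 0.05 (0 of 13626, limma), and the smallest adjusted p was 0.791. At an unadjusted p under 0.05, 500 genes (3.67%) passed, a share no larger than this threshold lets through where no gene differs. Pxmp4 differed by -1.21 in F2 and by 0.43 in F1, with the lower level in F2 PNO and the higher level in F1 PNO, the smallest unadjusted interaction p of the named genes. Tstd1 differed by -1.05 in F2 and 0.48 in F1, and Scarf1 by -1.60 in F2 and 0.31 in F1, both also under the unadjusted threshold for the interaction. Pxmp4, Tstd1 and Scarf1 were named for their large difference in the same F2 libraries, which favours a large interaction, so these values are no separate evidence. For the folding genes the test gave 1 of 106, and for axon guidance 6 of 116.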

How the data were processed

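NAc tissue was taken from P14 brains, and total RNA was sequenced by the authors' provider. The submitters' processing notes name HISAT2, SAMtools, StringTie and edgeR without versions, and the genome build is not given in the sources used here. The deposited values are FPKM per gene, which the authors obtained with StringTie after merging the transcriptomes of all libraries, listed to 2 decimals. No read counts were used and sequencing depth is unknown, so no counting intervals are given.

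Genes with at least 1 FPKM in 4 or more of the 8 F2 libraries were tested with limma 3.58.1 (lmFit, eBayes with trend, R 4.3.3) on log2(FPKM + 0.1), two-sided, with Benjamini-Hochberg adjustment over 13626 genes. Since the log2 scale carries a pseudocount, differences of low genes are understated. The fit was tested on simulated data. An exact permutation test of 4 against 4 libraries cannot go below 0.0286 and is not used for calls. Gene lists are described by counts and medians, with no set test.

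Named genes were, in each direction, up to 12 protein-coding genes of a 2-fold rule (p under 0.05 and mean FPKM at least 2-fold apart) with the smallest p and no overlap, leaving out provisional symbols, together with 10 genes of the study's RT-PCR and the 4 members of a list with the smallest p. The study's methods give 1.5-fold for hits taken to RT-PCR. Other genes were chosen after their values were seen. Some genes counted in the lists are not reported here by name. Members and lists were chosen with earlier results of these data known. Biotypes, promoters and positions come from RefSeq (GRCr8), and 1583 of the genes tested matched no RefSeq gene. Alternatives covered the pseudocount, filter, scaling, covariates, replicate block and left-out libraries. No source links same-numbered F2 PNO and F2 SAL libraries, so the numbers were not used to pair samples. The deviations of same-numbered libraries from the group means correlated at -0.15 to 0.113, which cannot exclude a pairing. The p-values measure only the spread between these samples, which may include pups of one litter.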

Additional observations from a re-analysis of the deposited data

Results flagged for a closer look

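In 12 of 82 groups of 4 libraries, 1 library lay far from the rest, judged by its distance to the nearest value as a share of the whole range of the group (Dixon's test). Chance flags about 1 in 20 groups, or about 4.1 here. In F2 PNO 4, the choroid plexus genes summed to 6977 FPKM against 32.8 to 44.7 in the other F2 PNO libraries (share 0.998), Y-linked genes to 30.2 against 0 to 0.16 (0.995), and hypothalamic genes to 847 against 27.3 to 145 (0.856). Of the 847 FPKM, 818 came from Pomc alone, which is also a pituitary hormone gene, so this sum does not stand for hypothalamic tissue. Aqp1, a water channel of choroid plexus, was at 9.91 FPKM there against 0.08 to 0.20 (0.988), and Msx1 was at 11.4 against 1.80 to 3.02 FPKM (0.873). In F2 PNO 2, blood genes summed to 204.8 FPKM against 33.25 to 51.6 (0.893), and the 2 models of Hba-a2 were at 128.9 against 19.8 to 31.6 FPKM (0.892) and 55.2 against 8.68 to 13.5 FPKM (0.896). Avp was at 47.6 FPKM in F2 PNO 1 against 1.48 to 5.50 (0.913), and Pmch was at 16.1 FPKM in F2 PNO 3 against 0.59 to 2.50 (0.877). In F2 SAL, the choroid plexus genes summed to 107 FPKM in F2 SAL 3 against 23.5 to 34.9 (0.864), and the first model of Hba-a2 was at 21.0 FPKM in F2 SAL 1 against 9.65 to 11.2 (0.867).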

How the results depend on the processing

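With all 8 libraries 0 genes had an adjusted p under 0.05 (limma, 1656 at unadjusted p under 0.05), and the count was 4 with a pseudocount of 1, 1 with a filter of 0.1 FPKM, 2 with no filter, 4 with 1 FPKM in all 8 libraries, 7 with all 24 libraries in one fit, 1 with the replicate block, and 0 to 6 when single libraries were left out (6 without F2 SAL 2). The 2-fold rule took in 151 genes, against 373 with a filter of 0.1 FPKM, 548 with no filter, 69 with 1 FPKM in all 8 libraries, 539 at a 1.5-fold ratio, and 132 to 275 without single libraries (275 without F2 PNO 4, 228 without F2 SAL 2). Higher genes numbered 591, against 952 after upper-quartile rescaling, 371 with the replicate block, 386 to 833 without single libraries (386 without F2 PNO 2, 390 without F2 SAL 4), 1050 without F2 PNO 1 after that rescaling and 945 without F2 PNO 1 and 4. Lower genes numbered 1065, against 1600 with the choroid plexus covariate and 649 to 1695 without single libraries (649 without F2 SAL 1, 1695 without F2 PNO 4). Median-ratio rescaling gave 847 higher and 894 lower genes. The replicate block, with numbers that no source links between the groups, otherwise gave 834 lower genes and 145 genes of the 2-fold rule. The count of genes with an adjusted interaction p under 0.05 was 0 in all 20 alternatives run.

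Without single libraries, Nptx2 (-0.32) ran from -0.586 to 0.0531, the latter without F2 PNO 1, and was 0.0813 and 0.0539 with that library out and upper-quartile or median-ratio rescaling, and 0.281 without F2 PNO 1 and 4. Pdyn (0.11) ran from -0.0684 without F2 PNO 1 to 0.282, was -0.0553 without F2 SAL 4, and was -0.0402 and -0.0677 under those rescalings. Neither was called. The cause of these changes was not tested. Alternatives that leave out F2 PNO 1 together with rescaling, or both F2 PNO 1 and 4, were chosen after seeing the data. Depth is unknown, so its limit on low genes could not be given.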

Other observations

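Small structured RNAs stood at the far end of the lower genes, and these were chosen after their values were seen. Rpph1, the RNA of ribonuclease P that trims the ends of transfer RNAs, was at 8.01, 6.36, 9.08 and 5.07 FPKM in F2 PNO and at 31.7, 21.8, 23.7 and 36.2 FPKM in F2 SAL. The groups were far apart, with F2 SAL 3.98-fold higher by the means and a log2 difference of -1.98 ± 0.23 (adjusted p = 0.0528, limma). Rn7sl1, the RNA of the signal recognition particle, was at 89.8, 65.7, 78.2 and 74.5 FPKM in F2 PNO and at 331.6, 217.5, 650.4 and 368.2 FPKM in F2 SAL, a log2 difference of -2.24 ± 0.29 (adjusted p = 0.0682, limma). Its mean was higher in F2 SAL (391.9 FPKM) than in any other group of the series. Mean Rn7sl1 was 77.05 in F2 PNO, 99.3 in F1 SAL and 66.96 in F1 PNO. In the in utero oxycodone line it was 261.4 in F1 and 115.2 in F2. Whether F2 PNO or F2 SAL moved was not tested. Of 5 tested genes carrying the family name of the same RNA (RF00017), 4 were lower and none was higher, and they summed to 18.9 to 39.9 FPKM in F2 PNO and 105 to 349.1 FPKM in F2 SAL. Of 7 genes of the 7SK family (RF00100), which holds back the elongation factor P-TEFb, 3 were lower and none was higher, and they summed to 13.75 to 25.25 FPKM in F2 PNO and 43.0 to 66.2 FPKM in F2 SAL. The genes of one family are near-identical copies, so they are not independent, and none passed an adjusted p of 0.05. Whether the libraries differed in how well they kept short RNAs was not tested.

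Several abundant genes outside the lists were also lower with tight groups, again picked for their small p. Plppr3, a phosphatase-related membrane protein of growing axons, was at 24.5, 28.7, 29.7 and 32.5 FPKM in F2 PNO and at 51.8, 49.6, 57.3 and 44.3 FPKM in F2 SAL. The groups did not overlap, with a log2 difference of -0.81 ± 0.13 (adjusted p = 0.126, limma). Tomm6, a subunit of the mitochondrial import pore, differed by -0.69 ± 0.11, Vstm2l, a secreted immunoglobulin-domain protein, by -0.75 ± 0.13, and Cbs, which makes cystathionine from homocysteine, by -0.85 ± 0.16. Mean Tomm6 was 101.7 FPKM in F2 SAL, 63.25 in F2 PNO and 67.96 to 84.33 in the other groups of the series.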
